A study of Mus musculus with 32 samples.

Results

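Mouse liver at 6 h after removal of 2/3 of the organ was compared with liver at 1 and 2 h after the same operation, gene by gene. The arrays were chosen by the time in the source name of each sample, which gave 2 arrays at 6 h, 2 at 1 h and 2 at 2 h, or 6 of the 32 arrays of the series. Genes were 18194, each read by 1 probe set. In all these groups the mice were CD-1 females of 10 weeks, an outbred stock, and each array held a pool of at least 3 tissues from different animals. The operated mice had been anaesthetised with ketamine and xylazine, their 3 anterior lobes and gallbladder were removed, and buprenorphine was given against pain. The 2 arrays of time 0 came from unoperated livers of the same stock, sex and age and are given beside the others as the starting level. No sham-operated group was analysed here, so anaesthesia, laparotomy, analgesia and the loss of liver tissue cannot be told apart. The labels do not give the hour of day of collection, and hours after the operation cannot be told apart from time of day.

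After partial hepatectomy the remaining hepatocytes leave rest within hours and enter the cell cycle later, in a wave known as liver regeneration. The first phase, called priming, brings immediate early transcription factors and cytokine signals: tumour necrosis factor and interleukin 1 act through the transcription factor NF-kB, and interleukin 6 acts through STAT3. The acute phase response, in which hepatocytes secrete defence proteins such as serum amyloid A, follows from the same signals. The remnant liver also takes on the metabolic work of the whole organ, with changes in glucose output and in fat storage.

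The deposited values were linear intensities, and array medians of the 6 arrays ran from 73.1 to 75.7. Replicates of a time correlated at 0.976 (6 h), 0.973 (1 h) and 0.982 (2 h) over all genes on the log2 scale. Both quality measures read moved with the comparison. The log2 ratio of the 3′ over the 5′ control probe sets of Actb was 0.757 and 0.730 at 6 h, against 1.18 and 1.18 at 1 h and 1.45 and 1.74 at 2 h, with 0.791 and 1.03 at time 0. The same ratio of Gapdh was -0.367 and -0.325 at 6 h, against -0.282 and -0.174 at 1 h and 0.197 and 0.325 at 2 h, with -0.226 and -0.330 at time 0. A higher ratio goes with shorter or more degraded RNA, and with the Actb ratio as a covariate, an alternative added after the data were seen, 2073 genes were called, 185 higher and 1888 lower. Albumin (Alb), the main secreted protein of hepatocytes, read 7276 and 8464 at 6 h, against 1 h values of 8536 and 8844 and 2 h values of 8554 and 10738, so all 6 arrays carried the defining marker of liver. Changes are log2 differences of intensity + 16 from a limma fit of all 32 arrays, and folds are on that scale, which understates the change of dim genes. Besides 20 arrays of adult liver, the fit held arrays of embryonic liver, which share in the estimate of spread. With the 20 adult arrays alone 125 genes were called, against 424 with all 32. A gene is called when its Benjamini-Hochberg adjusted p over all genes is under 0.05. Nothing beyond separate pools is named in the labels, and the p-values therefore cover only pool-to-pool spread, which may be technical. In whole tissue, fewer cells of a type and less RNA per cell cannot be told apart.

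At 6 h, 424 genes (2.33% of those tested) differed from 1 and 2 h, 127 of them higher (0.698%) and 297 lower (1.63%). The highest rises belonged to acute phase and innate immune genes. The falls took in early response factors, fat synthesis, and genes of glucose, glycogen and insulin response. Of the called genes, 70 were higher and 82 lower by at least 2-fold. Over all genes the median change was -0.056. Both 6 h arrays lay above all 4 arrays of 1 and 2 h for 1306 genes (7.18%), and below all 4 for 3723 genes (20.5%). Against 1 h alone 298 genes (1.64%) were called, 99 higher at 6 h (0.544%) and 199 lower (1.09%); under quantile normalization these were 144 and 153. Against 2 h alone 164 (0.901%) were called, 57 higher (0.313%) and 107 lower (0.588%). The count rested unevenly on the arrays: without 6 h replicate 1 it was 47 (20 higher, 27 lower), and without 6 h replicate 2 it was 344. It was 213 without 1 h replicate 2, 257 without 2 h replicate 1, 191 without 2 h replicate 2, and 15 when the spread was estimated from the 6 arrays alone.

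**Figure D1:**
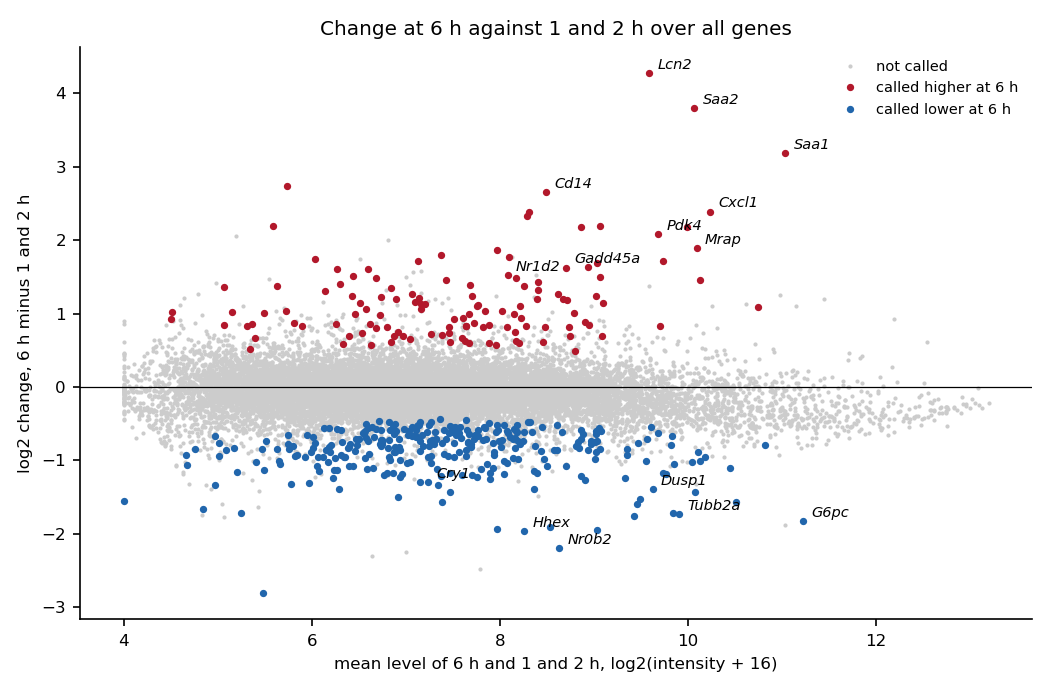
Each point is 1 of 18194 genes, with its mean level at 6 h and at 1 and 2 h on the x axis (log2 of intensity + 16) and its log2 change, 6 h minus 1 and 2 h, on the y axis. Red points are the 127 genes called higher at 6 h and blue points the 297 called lower; Lcn2, Saa2 and Saa1 lie highest.

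Of 30 gene lists for liver functions and 9 marker lists for cell types, which together hold 797 measured genes, 33 genes were called higher and 35 lower. Beside the counts of each list below stand 0.698% higher and 1.63% lower over all genes. At least 1 called member was found in 24 of the 39 lists. The lists with most members higher were those of acute phase, NF-kB and IL-6 signalling, neutrophil markers, lipid droplets, the circadian clock and ribosome biogenesis. Fatty acid synthesis, early response factors, TGF-beta signalling, and glucose, glycogen and insulin response held most members that were lower.

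**Figure D2:**
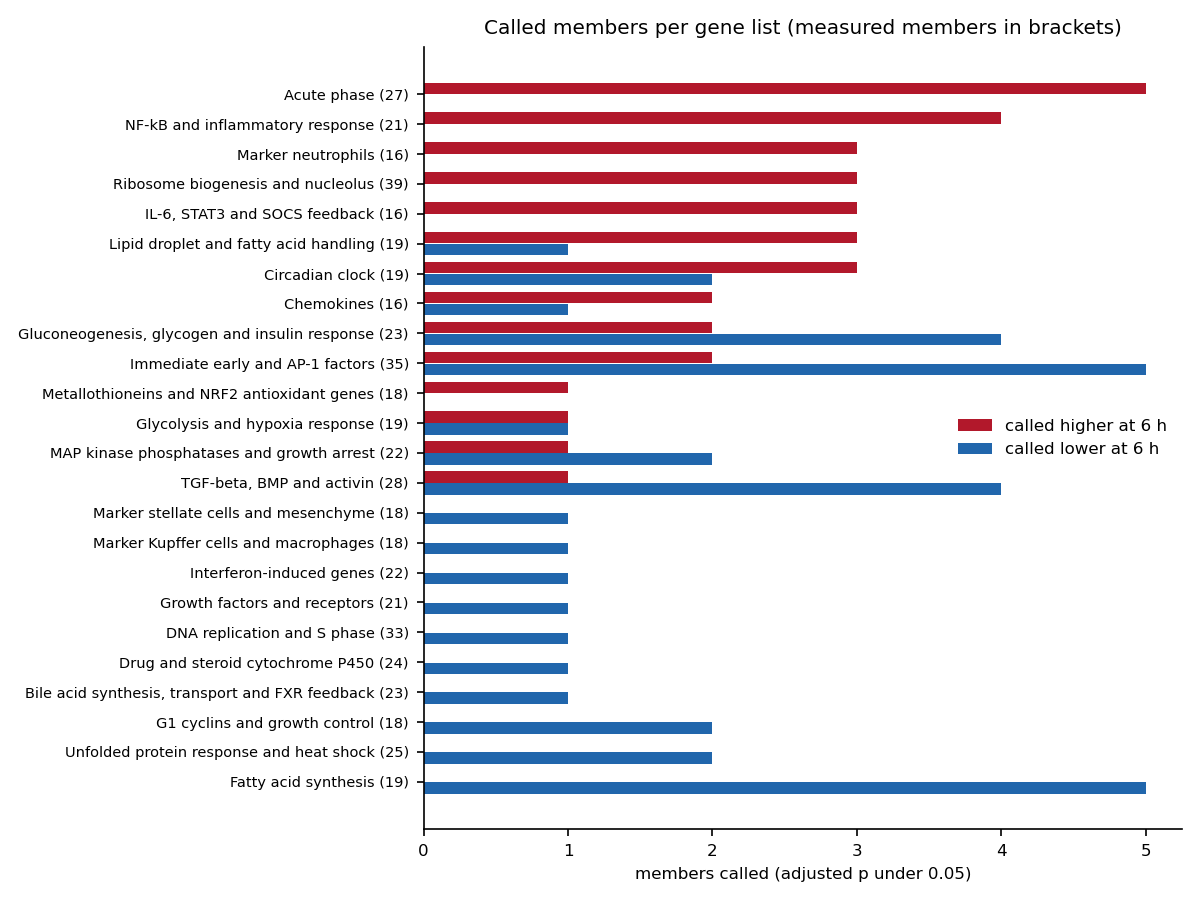
Bars give the number of members of each gene list called higher (red) or lower (blue) at 6 h against 1 and 2 h, with the number of measured members in brackets. Only the 24 lists with a called member are drawn; acute phase has 5 higher and 0 lower, fatty acid synthesis 0 higher and 5 lower.

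Acute phase genes gave the highest rises. The list had 5 of 27 measured members higher at 6 h and 0 lower, with a median change of -0.033; 4 stayed higher without 6 h replicate 1. Lipocalin 2 (Lcn2), an iron-scavenging protein that binds bacterial siderophores, read 5093 and 1877 at 6 h, against 1 h values of 247 and 109 and 2 h values of 144 and 111, and 219 and 245 at time 0. The 6 h arrays differed from each other, yet both lay far above every other array (19.4-fold, log2 change 4.28, SE 0.42, adjusted p = 6.5e-06). Lcn2 is among the largest rises, which were chosen without overlap of the 6 h arrays with those of 1 and 2 h. Serum amyloid A 1 (Saa1), a lipoprotein-bound defence protein of the liver, read 7251 and 5263 at 6 h, against 1 h values of 1012 and 605 and 2 h values of 562 and 571. At time 0 it read 1563 and 1968, above both early times and below 6 h (log2 change 3.18, SE 0.23, adjusted p = 7.0e-08). Its neighbour Saa2 read 5368 and 2746 at 6 h, against 1 h values of 346 and 213 and 2 h values of 209 and 299, with 904 and 785 at time 0 and the same order of the groups (log2 change 3.80, SE 0.28, adjusted p = 7.0e-08). The probe sets of Saa1 and Saa2 may read both near-identical genes, so the pair is not separable here; the second Saa1 probe set changed by 3.21.

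Steap4, a metalloreductase, read 3111 and 1369 at 6 h, against 1 h values of 469 and 519 and 2 h values of 397 and 396 (log2 change 2.18, SE 0.28, adjusted p = 1.6e-04), and Nnmt, which methylates nicotinamide, read 1423 and 837 at 6 h, against 1 h values of 348 and 207 and 2 h values of 210.2 and 175 (log2 change 2.19, SE 0.51, adjusted p = 0.025). Neither gene's 6 h arrays overlapped the earlier ones, but both are among the largest rises, which were chosen on that condition. Their lack of overlap is therefore no further evidence. The call of Nnmt was lost without either 6 h array. Other classical acute phase genes did not pass. Saa3 read 864 and 234 at 6 h, against 1 h values of 88.1 and 125 and 2 h values of 132 and 147, with 1 of the 6 h arrays far above the other (adjusted p = 0.084). The protease inhibitor Serpina3n read 4874 and 3464 at 6 h, against 1 h values of 2373 and 2283 and 2 h values of 1289.5 and 1428 (adjusted p = 0.11). Haptoglobin (Hp), fibrinogen alpha (Fga) and hepcidin (Hamp), which were already bright at 1 and 2 h, changed by -0.11, -0.17 and -0.30 with adjusted p between 0.83 and 0.94.

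The promoters of 3 of these genes are shown because each holds 1 match to TTNNGCAA, letters bound by C/EBP factors, whose member Cebpd was among the rising genes. Whether Cebpd acts on them was not tested. The windows run from 250 bases before to 50 after the RefSeq start site in GRCm38.p6, 5′ to 3′ on the gene's strand, with the match in capitals. Saa1 lies at chr7:46742931-46743230 (minus strand), Saa2 at chr7:46751583-46751882 (plus strand) and Lcn2 at chr2:32387690-32387989 (minus strand). The match starts 182, 183 and 216 bases before the start site of Saa1, Saa2 and Lcn2.
Saa1: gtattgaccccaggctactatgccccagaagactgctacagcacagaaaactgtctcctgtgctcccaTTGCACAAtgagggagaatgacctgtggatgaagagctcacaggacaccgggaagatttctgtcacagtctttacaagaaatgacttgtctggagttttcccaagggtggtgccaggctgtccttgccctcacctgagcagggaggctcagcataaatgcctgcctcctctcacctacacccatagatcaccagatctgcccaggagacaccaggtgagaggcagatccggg
Saa2: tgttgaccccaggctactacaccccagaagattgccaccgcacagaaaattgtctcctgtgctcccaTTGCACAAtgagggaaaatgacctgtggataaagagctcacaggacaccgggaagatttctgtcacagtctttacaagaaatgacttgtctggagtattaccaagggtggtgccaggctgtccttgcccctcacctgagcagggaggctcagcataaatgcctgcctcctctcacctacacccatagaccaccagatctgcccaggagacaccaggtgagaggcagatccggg
Lcn2: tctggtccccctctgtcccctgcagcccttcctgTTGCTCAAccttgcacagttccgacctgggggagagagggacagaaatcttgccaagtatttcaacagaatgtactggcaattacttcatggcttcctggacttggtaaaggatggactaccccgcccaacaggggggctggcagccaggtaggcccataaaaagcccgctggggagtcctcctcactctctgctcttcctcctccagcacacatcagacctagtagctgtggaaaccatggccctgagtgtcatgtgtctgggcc
On either strand these letters were found in 10.8% of all 32851 windows. Among other raised genes looked up, Steap4 and Nr1d1 had 1 match, and Socs3, Cxcl1, Nr1d2 and Ciart had 0. Of the genes called higher, 102 of 127 had a window and 21 of these (20.6%) a match, against 22 of 237 (9.28%) of those called lower. Of all tested genes with a window, 10.8% had one. A match is a description of the sequence only.

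The NF-kB and inflammatory list had 4 of 21 members higher and 0 lower (median 0.128), and 2 remained called without 6 h replicate 1. Among receptors, Cd14, the co-receptor for bacterial lipopolysaccharide, read 1156 and 629 at 6 h, against 1 h values of 86.0 and 98.6 and 2 h values of 134 and 191. It stood at 90.2 and 80.1 at time 0, so the 1 h arrays lay near the starting level and the 6 h arrays several-fold above (6.29-fold, log2 change 2.65, SE 0.33, adjusted p = 1.0e-04). Il1r1, the signalling receptor of interleukin 1, read 923 and 479 at 6 h, against 1 h values of 111 and 102 and 2 h values of 131 and 137 (log2 change 2.33, SE 0.33, adjusted p = 4.2e-04). Tifa, an adaptor upstream of TRAF6 and NF-kB, read 1091 and 399.6 at 6 h, against 1 h values of 145 and 73.8 and 2 h values of 131 and 116 (log2 change 2.39, SE 0.37, adjusted p = 0.001). The calls of Il1r1 and Tifa were lost without 6 h replicate 1.

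Further genes of the pathway were also called. Nfkbiz, a nuclear IkB protein needed for a second wave of NF-kB targets, read 294 and 324 at 6 h, against 1 h values of 81.5 and 75.3 and 2 h values of 152 and 144, and its 6 h arrays were nearly equal (log2 change 1.39, SE 0.21, adjusted p = 7.9e-04). Its other probe sets changed by 0.31 and -0.03. Bcl3, another nuclear IkB protein, read 398 and 222 at 6 h, against 1 h values of 108 and 111 and 2 h values of 129 and 121 (log2 change 1.24, SE 0.28, adjusted p = 0.019), and its time 0 level of 275 and 246 was close to that of 6 h. The neutrophil-attracting chemokine Cxcl1 read 3211 and 2275 at 6 h, against 1 h values of 510.4 and 404 and 2 h values of 567 and 547 (log2 change 2.39, SE 0.41, adjusted p = 0.0027). Time 0 arrays read 1002 and 2106, and against them the 6 h level did not pass (adjusted p = 0.58). The adhesion molecule Icam1 rose by 0.84 (adjusted p = 0.046) and the chemokine Ccl6 by 0.73 (adjusted p = 0.042), and each call was lost under 8 or more of the 19 alternatives. Cxcl12, a chemokine of stromal and endothelial cells, fell by 1.80-fold (log2 change -0.85, SE 0.21, adjusted p = 0.031). Nfkbia, the classical feedback inhibitor of NF-kB, read 1492 and 1421 at 6 h, against 1 h values of 1087 and 1043 and 2 h values of 1071 and 1087, all higher at 6 h but not called (adjusted p = 0.32). Without 6 h replicate 1 the calls of Bcl3, Cxcl1 and Cxcl12 were lost, and that of Cxcl12 also without 6 h replicate 2. Il1b, interleukin 1 beta itself, read 105 and 114 at 6 h, against 1 h values of 134 and 118 and 2 h values of 147 and 156 and did not pass (adjusted p = 0.5).

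A further 4 genes of these routes were named after their values were seen. Arid5a, which stabilises cytokine messenger RNAs, read 240.2 and 231 at 6 h, against 1 h values of 51.4 and 50.2 and 2 h values of 67.7 and 78.1, with close replicates throughout (log2 change 1.71, SE 0.17, adjusted p = 6.1e-06). Il17ra, a receptor chain for interleukin 17, rose by 1.40 (adjusted p = 0.0023). Myd88, the adaptor of Toll-like and interleukin 1 receptors, rose by 1.16 (adjusted p = 0.014), and the kinase Map3k8 by 1.60 (adjusted p = 0.036). Of these, only the call of Arid5a held under all 19 alternatives.

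The IL-6, STAT3 and SOCS list had 3 of 16 members higher and 0 lower, with a median of 0.197; without 6 h replicate 1 none remained called. Socs3, the feedback inhibitor of the IL-6 receptor complex, read 1780.1 and 1225 at 6 h, against 1 h values of 542 and 695 and 2 h values of 337 and 289.7, and 288 and 505 at time 0. It was higher at 1 h than at 2 h and higher still at 6 h, with no overlap (log2 change 1.71, SE 0.26, adjusted p = 9.0e-04). Cebpd, a C/EBP factor of the acute phase response, read 621 and 431 at 6 h, against 1 h values of 199 and 179.9 and 2 h values of 195 and 216, with 116 and 131 at time 0 (log2 change 1.32, SE 0.24, adjusted p = 0.0037). Stat3 itself changed by 0.51 (adjusted p = 0.41), and Cebpb, the sister factor of Cebpd, by 0.04 (adjusted p = 0.99). The receptor chain Il6ra read 110.3 and 123 at 6 h, against 1 h values of 118 and 96.3 and 2 h values of 103 and 92.7 and did not pass (adjusted p = 0.72).

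**Figure D3:**
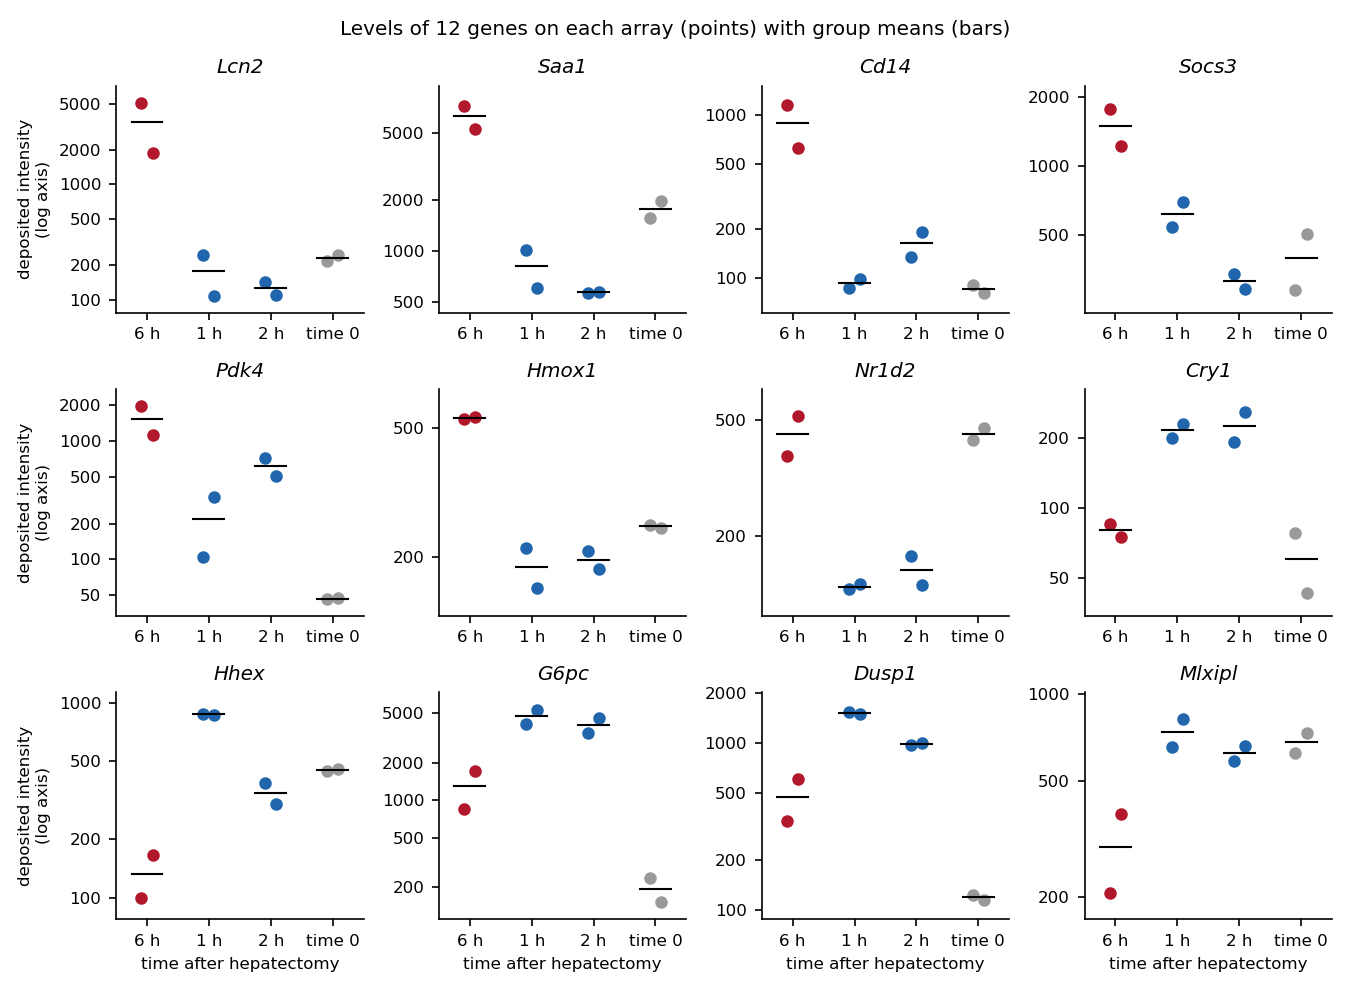
Deposited intensity (log axis) of 12 genes on each array, with 6 h in red, 1 h and 2 h in blue and time 0 in grey; bars are group means of 2 arrays. In all 12 panels both 6 h arrays lie outside the range of the 4 arrays of 1 and 2 h, while time 0 lies near 6 h for Nr1d2 and Cry1 and near the early times for Mlxipl.

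Markers of other cell types were read beside these changes. Of 16 measured neutrophil markers, 3 were higher at 6 h and 0 lower: Lcn2, which hepatocytes also make, and the calcium-binding pair S100a8 and S100a9. S100a8 read 578 and 597 at 6 h, against 1 h values of 230.1 and 132 and 2 h values of 265 and 472, with 59.7 and 79.9 at time 0 (log2 change 1.18, SE 0.29, adjusted p = 0.035). S100a9 followed the same order with a change of 1.14 (adjusted p = 0.025); both calls were lost without either 6 h array. The neutrophil markers other than Lcn2 summed to between 2639 and 2700 at 6 h, against 1570 to 2288 at 1 and 2 h and 1228 to 1364 at time 0. This sum includes S100a8 and S100a9, with means of 587.5 and 775.9 at 6 h against 274.6 and 365 at 1 and 2 h. The remaining markers were not summed alone. Whether neutrophils contribute to the inflammatory genes above was not tested. Kupffer cell and macrophage markers summed to 6215 to 7167 at 6 h, against 6990 to 8149 at 1 and 2 h. Of 18 such markers 1 was lower, the iron exporter Slc40a1 (log2 change -1.05, SE 0.27, adjusted p = 0.039), and 0 were higher. The call of Slc40a1 was lost under 9 of the 19 alternatives, among them leaving out either 6 h array. Its second probe set changed by -0.48. Of 18 stellate cell and mesenchyme markers 1 was lower, the PDGF receptor Pdgfrb, which read 45.1 and 57.9 at 6 h, against 1 h values of 113 and 112 and 2 h values of 106 and 135 (log2 change -0.97, SE 0.13, adjusted p = 3.0e-04). None of 18 endothelial, 8 hepatocyte, 15 lymphocyte, 10 bile duct, 9 red cell or 13 neighbouring organ markers was called. Endothelial marker sums were nevertheless below the earlier range, at 3616 to 3956 against 4479 to 5635, with a median change of -0.335. Hepatocyte marker sums were 38853 to 42073 at 6 h, against 42888 to 53487.

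Several early response genes were lower at 6 h than at 1 and 2 h. Of 35 immediate early and AP-1 members 5 were lower and 2 higher (median -0.209), and 0 lower and 1 higher without 6 h replicate 1. Among MAP kinase phosphatases and growth arrest genes, 2 of 22 were lower and 1 was higher. Dusp1, which switches off MAP kinases, read 339.5 and 610.5 at 6 h, against 1 h values of 1539 and 1495 and 2 h values of 974 and 1003, and 123 and 115 at time 0. Its 6 h arrays thus lay between the starting level and the early level (log2 change -1.39, SE 0.25, adjusted p = 0.0039), and still above time 0 (log2 change 1.81, SE 0.29, adjusted p = 1.0e-03). Myc, the growth-promoting transcription factor, read 109 and 173 at 6 h, against 1 h values of 461 and 417 and 2 h values of 258 and 241 (log2 change -1.18, SE 0.25, adjusted p = 0.014), with 62.5 and 81.7 at time 0. Btg2, an antiproliferative protein, read 258 and 456 at 6 h, against 1 h values of 571 and 700.2 and 2 h values of 836 and 684 (log2 change -0.98, SE 0.23, adjusted p = 0.025), and Sik1, a kinase induced by cyclic AMP, read 71.7 and 133 at 6 h, against 1 h values of 175 and 206 and 2 h values of 264 and 353 (log2 change -1.17, SE 0.21, adjusted p = 0.0033). The orphan receptor Nr4a1 changed by -1.43 (adjusted p = 0.03), Zfp36l1, which destabilises AU-rich messengers, by -0.96 (adjusted p = 0.0076), and Dusp6, a phosphatase of ERK, by -0.86 (adjusted p = 0.025). All of the lower genes named here lost their call without 6 h replicate 1.

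Fos, Jun and other classical members did not pass. Fos read 71.7 and 313 at 6 h, against 1 h values of 819.7 and 804 and 2 h values of 341 and 195, and its 6 h arrays overlapped those of 2 h (log2 change -1.49, SE 0.46, adjusted p = 0.11). Against 1 h alone Fos was lower (log2 change -2.29, SE 0.53, adjusted p = 0.032). Jun changed by -0.76, Junb by -0.21, Egr1 by -0.34 and Atf3 by -0.86, with adjusted p between 0.2 and 0.92. On the other side, Ier3, a survival gene, read 188 and 119 at 6 h, against 1 h values of 25.9 and 41.7 and 2 h values of 40.5 and 49.0 (log2 change 1.60, SE 0.22, adjusted p = 3.2e-04), and Klf6, a zinc finger factor, rose by 1.12 (adjusted p = 0.0033). Gadd45a, a stress sensor that binds PCNA, read 661 and 683 at 6 h, against 1 h values of 87.2 and 165 and 2 h values of 366 and 332. At time 0 it read 140.2 and 130.0, so the 2 h arrays lay above those of time 0 and the 6 h arrays above all others (log2 change 1.62, SE 0.25, adjusted p = 7.9e-04). Cdkn1a, the cell cycle inhibitor p21, read 807 and 642 at 6 h, against 1 h values of 266 and 370.3 and 2 h values of 458 and 460.0, higher on both 6 h arrays but not called (adjusted p = 0.09). Without 6 h replicate 1 the call of Klf6 was lost and those of Ier3 and Gadd45a were not.

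Promoters of 2 of the falling genes are shown for their match to the cyclic AMP response element TGACGTCA, in capitals below. Nr4a1 had no match in its window, and Sik1 and Myc had no window. Dusp1 lies at chr17:26508423-26508722 (minus strand) and Btg2 at chr1:134079106-134079405 (minus strand), both in GRCm38.p6. The matches start 143 bases before the start site of Dusp1 and 166 before that of Btg2.
Dusp1: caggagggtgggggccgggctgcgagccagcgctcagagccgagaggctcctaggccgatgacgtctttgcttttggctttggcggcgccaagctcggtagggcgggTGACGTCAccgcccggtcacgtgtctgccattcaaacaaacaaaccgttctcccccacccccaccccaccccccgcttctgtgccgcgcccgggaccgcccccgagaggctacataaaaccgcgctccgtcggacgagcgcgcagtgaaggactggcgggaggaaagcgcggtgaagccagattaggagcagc
Btg2: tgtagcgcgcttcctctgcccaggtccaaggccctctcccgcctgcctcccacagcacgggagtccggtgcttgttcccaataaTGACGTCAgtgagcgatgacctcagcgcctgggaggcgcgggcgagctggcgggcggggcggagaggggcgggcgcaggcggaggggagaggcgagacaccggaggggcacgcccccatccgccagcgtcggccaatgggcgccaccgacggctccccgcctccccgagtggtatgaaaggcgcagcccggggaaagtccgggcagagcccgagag
The element was found in 1.79% of all windows, in 13 of 237 windowed genes called lower (5.49%), in 4 of 102 called higher (3.92%) and in 2.92% of all tested genes with a window.

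Among genes of glucose output and insulin response, 4 of 23 members were lower at 6 h and 2 higher (median -0.39); without 6 h replicate 1 none was lower and 1 higher. G6pc, the last enzyme of glucose release, read 849 and 1735 at 6 h, against 1 h values of 4113 and 5364 and 2 h values of 3484 and 4606, with 236 and 152 at time 0. The 6 h arrays were unequal, but both lay below every early array (3.54-fold lower, log2 change -1.82, SE 0.43, adjusted p = 0.027), and the level was still above time 0 (log2 change 2.58, SE 0.50, adjusted p = 0.0058). Ppp1r3g, a subunit that directs protein phosphatase 1 to glycogen, read 233 and 616 at 6 h, against 1 h values of 988 and 1586 and 2 h values of 828 and 1240.1, with 24.4 and 64.9 at time 0 (log2 change -1.53, SE 0.30, adjusted p = 0.0083). The insulin receptor Insr changed by -0.70 (adjusted p = 0.017) and its substrate Irs2 by -0.94 (adjusted p = 0.045). Other probe sets of Insr, which were dimmer, changed by -0.08 and -0.43. Pck1, which commits carbon to gluconeogenesis, changed by -0.61 (adjusted p = 0.81). Igfbp1, a secreted binder of insulin-like growth factors, stayed bright at 4137 and 5786 at 6 h, against 1 h values of 5384 and 6520.2 and 2 h values of 5135 and 6810.2, with 44.8 and 244 at time 0; its change from 1 and 2 h was -0.27 (adjusted p = 0.92).

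Other fuel genes were higher at 6 h. Pdk4, a kinase that blocks pyruvate entry into the citric acid cycle, read 1975 and 1123 at 6 h, against 1 h values of 104 and 336 and 2 h values of 713 and 506, and 46.0 and 46.8 at time 0, so the groups ran upward in time (log2 change 2.08, SE 0.40, adjusted p = 0.0066). Ppargc1a, a coactivator of fasting metabolism, rose by 0.69 (adjusted p = 0.0049), and its 4 other probe sets changed by between 0.19 and 0.38. Pfkfb3, which makes the activator of glycolysis fructose 2,6-bisphosphate, read 122 and 84.4 at 6 h, against 1 h values of 26.6 and 18.1 and 2 h values of 26.3 and 8.68 (log2 change 1.74, SE 0.28, adjusted p = 0.0016). Its second probe set changed by 0.44. In the lipid droplet and fatty acid list 3 of 19 members were higher and 1 was lower, and none remained called without 6 h replicate 1. Cd36, a fatty acid uptake receptor, read 563 and 419 at 6 h, against 1 h values of 108 and 122 and 2 h values of 161 and 140.0 (log2 change 1.77, SE 0.31, adjusted p = 0.0031). Angptl4, an inhibitor of lipoprotein lipase, rose by 1.63 (adjusted p = 0.0094) and Cidec, a lipid droplet protein, by 1.51 (adjusted p = 0.0066). G0s2, an inhibitor of fat breakdown, read 100.1 and 120.0 at 6 h, against 1 h values of 321 and 664 and 2 h values of 517 and 425 (log2 change -1.94, SE 0.45, adjusted p = 0.025). The droplet coat protein Plin2 read 3724 and 2181 at 6 h, against 1 h values of 2645 and 2808 and 2 h values of 2440.5 and 2588 and was not called (adjusted p = 0.96). The calls of Pdk4 and Pfkfb3 were lost without 6 h replicate 1, and that of Ppargc1a without 6 h replicate 2.

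Fatty acid synthesis had 5 of 19 members lower and 0 higher, with a median of -0.533 and 11 members below all earlier arrays on both 6 h arrays. Over all genes 1.63% were called lower and 20.5% lay below all earlier arrays in this way. Without 6 h replicate 1 none of the 5 remained called, and without both 2 h arrays 3 did. Mlxipl, the carbohydrate-responsive transcription factor ChREBP, read 207 and 386 at 6 h, against 1 h values of 657 and 820.1 and 2 h values of 586 and 662, with 628 and 735 at time 0 (log2 change -1.21, SE 0.23, adjusted p = 0.005). Mid1ip1, which activates acetyl-CoA carboxylase, read 102 and 121 at 6 h, against 1 h values of 344 and 258 and 2 h values of 267 and 246, with 829 and 452 at time 0 (log2 change -1.20, SE 0.26, adjusted p = 0.013). The enzymes Fasn (fatty acid synthase), Acly (ATP citrate lyase) and Fads1 (a desaturase) changed by -1.01, -1.0 and -1.10, with adjusted p between 0.018 and 0.046. Srebf1, the insulin-responsive regulator of the pathway, changed by -0.71 (adjusted p = 0.29), and the desaturase Scd1 by 0.06 (adjusted p = 0.99). The second Scd1 probe set went up by 1.235, with means of 1398 at 6 h and 700 at 1 and 2 h. That of Fads1, which was dim, changed by -0.11.

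Other genes among the 15 largest falls belong to no single list. Hhex, a homeobox factor of liver development, read 100.0 and 167 at 6 h, against 1 h values of 880.1 and 869 and 2 h values of 388 and 304, and 446 and 460.2 at time 0. It was high at 1 h, below the starting level at 2 h and lowest at 6 h (3.89-fold lower, log2 change -1.96, SE 0.26, adjusted p = 2.1e-04). Nr0b2, the repressor SHP of bile acid synthesis, read 87.5 and 272 at 6 h, against 1 h values of 1006 and 859 and 2 h values of 681 and 616 (log2 change -2.20, SE 0.51, adjusted p = 0.025), and was the 1 of 23 bile acid genes called. Cyp7a1, the rate-limiting enzyme that SHP represses, read 128 and 427 at 6 h, against 1 h values of 495 and 1116 and 2 h values of 332 and 349, with overlap (adjusted p = 0.19). Cldn1, a tight junction protein, read 401 and 574 at 6 h, against 1 h values of 1813 and 2109.8 and 2 h values of 1268 and 1393 (log2 change -1.71, SE 0.24, adjusted p = 3.0e-04); its other probe sets changed by -1.35, -0.41 and -0.10. The tubulin Tubb2a read 479 and 538 at 6 h, against 1 h values of 1383 and 1634 and 2 h values of 1733 and 2244 (log2 change -1.73, SE 0.20, adjusted p = 3.9e-05), and Tuba4a changed by -1.57 (adjusted p = 0.0017), with 1 of its other probe sets at 0.01. Without 6 h replicate 1 the calls of Nr0b2 and Tuba4a were lost and those of Hhex, Cldn1 and Tubb2a were not. The tubulin probe sets can share sequence with other tubulin genes, and the call of Tubb2a was lost when ambiguous probe sets were left out.

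Also among these falls were Ddc, the aromatic amino acid decarboxylase (log2 change -1.60, SE 0.33, adjusted p = 0.012), and the zinc finger factor Rreb1 (log2 change -1.56, SE 0.24, adjusted p = 9.0e-04), whose other 4 probe sets changed by between -0.90 and -0.13. Edar, a receptor of the tumour necrosis factor family, read 361 and 347 at 6 h, against 1 h values of 1377 and 1497 and 2 h values of 1017 and 1129, and 306 and 1009.6 at time 0 (log2 change -1.76, SE 0.46, adjusted p = 0.043); its second probe set changed by -0.18. Nrep changed by -1.91 (adjusted p = 0.004) and its second probe set by -0.82. The pseudogenes Serpina4-ps1 and Zfp353-ps changed by -1.94 and -1.50, at adjusted p = 0.01 and 0.031. All 6 of these lost their call without 6 h replicate 1. The fitted fall was largest for Rccd1 (log2 change -2.81, SE 0.30, adjusted p = 1.2e-05), but it read -39.6 and -0.704 at 6 h, against 1 h values of 50.9 and 171 and 2 h values of 55.2 and 161, that is, below 0 at 6 h, where no level is measured and the fitted change gives no size. No member of the 26 liver transcription factors and nuclear receptors, 28 secreted plasma proteins or 25 urea cycle and amino acid genes was called. Their medians were -0.354, -0.346 and -0.314, and -0.289, -0.097 and -0.05 under quantile normalization.

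Among the 15 largest rises outside the immune lists, Mrap, an accessory protein of melanocortin receptors, read 2564 and 1636 at 6 h, against 1 h values of 432 and 605 and 2 h values of 649.7 and 501 (log2 change 1.89, SE 0.29, adjusted p = 7.9e-04), although its second probe set changed by -0.19. The small GTPase Rab30 read 1006 and 894 at 6 h, against 1 h values of 107 and 207 and 2 h values of 282 and 236, with 67.2 and 103 at time 0 (log2 change 2.18, SE 0.37, adjusted p = 0.0023). Sgms1, which makes sphingomyelin, read 643 and 309 at 6 h, against 1 h values of 96.0 and 98.9 and 2 h values of 131 and 123 (log2 change 1.86, SE 0.20, adjusted p = 1.6e-05). Sult1e1, the oestrogen sulphotransferase, read 91.4 and 80.0 at 6 h, against 1 h values of -0.451 and 10.9 and 2 h values of 9.88 and 6.25, so the earlier arrays were near 0 and the fitted change gives no firm size (adjusted p = 0.03). Defb19, a defensin, rested on 1 array, reading 298 and 24.9 at 6 h, against 1 h values of -8.01 and -3.14 and 2 h values of 4.27 and -7.50 (adjusted p = 0.032). Of the 4 earlier arrays 3 were below 0, where no level is measured, and the fitted change gives no size. Of these 5, only Sgms1 passed without 6 h replicate 1.

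Stress genes divided in direction. Hmox1, haem oxygenase 1 of the NRF2 response, read 533 and 539.8 at 6 h, against 1 h values of 212 and 160.1 and 2 h values of 208 and 184, with 250.4 and 246 at time 0 and close replicates (log2 change 1.42, SE 0.14, adjusted p = 6.9e-06). It was the 1 of 18 metallothionein and antioxidant genes called; the metallothioneins Mt1 and Mt2 changed by 0.61 and 0.93 (adjusted p = 0.63 and 0.25). The chaperones Hsph1 (-1.20, adjusted p = 0.042) and Hsp90aa1 (-0.80, adjusted p = 0.046) were the 2 of 25 unfolded protein and heat shock genes called lower, and neither passed under quantile normalization. None of 27 genes of the ATF4 and amino acid response was called.

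The circadian clock list had 3 of 19 members higher and 2 lower. Nr1d2, the clock repressor REV-ERB beta, read 375 and 516 at 6 h, against 1 h values of 131 and 136 and 2 h values of 170.1 and 136, and 426 and 469 at time 0. Its 6 h level was near that of time 0 (log2 change -0.02) and well above both early times (log2 change 1.53, SE 0.20, adjusted p = 1.9e-04). Nr1d1, REV-ERB alpha, read 118 and 193 at 6 h, against 1 h values of 29.7 and 29.5 and 2 h values of 61.4 and 62.4 (log2 change 1.49, SE 0.29, adjusted p = 0.0065), and Ciart, a repressor of CLOCK and BMAL1, read 98.1 and 136 at 6 h, against 1 h values of 40.8 and 37.2 and 2 h values of 35.0 and 47.1 (log2 change 1.24, SE 0.28, adjusted p = 0.021). Cry1, a core repressor, ran the other way and read 85.4 and 75.1 at 6 h, against 1 h values of 201 and 231 and 2 h values of 192 and 258, with 77.8 and 43.2 at time 0 (log2 change -1.29, SE 0.20, adjusted p = 0.001). Bhlhe40, a repressor that also answers to other signals, read 393 and 737 at 6 h, against 1 h values of 1033 and 1150.4 and 2 h values of 1335 and 1439 (log2 change -1.17, SE 0.28, adjusted p = 0.029). Per1 did not pass (adjusted p = 0.78). For Arntl, which encodes BMAL1, and for Dbp, an output factor, the brightest probe sets changed by -0.07 and 0.38 and were not called, while their second probe sets changed by -1.26 and 2.42. Nr1d1 lost its call without 6 h replicate 2, Bhlhe40 without 6 h replicate 1, and Ciart without either.

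The promoters of Ciart and Cry1 are printed because both hold the E-box CACGTG, the letters bound by CLOCK and BMAL1, although the genes moved in opposite directions. Of the other called clock genes, Nr1d1 and Nr1d2 had no match in their windows, and Bhlhe40 had no window. Ciart lies at chr3:95882179-95882478 (minus strand) and has 3 matches, starting 116, 58 and 44 bases before the start site. Cry1 lies at chr10:85185005-85185304 (minus strand) and has 1, starting 60 bases before it.
Ciart: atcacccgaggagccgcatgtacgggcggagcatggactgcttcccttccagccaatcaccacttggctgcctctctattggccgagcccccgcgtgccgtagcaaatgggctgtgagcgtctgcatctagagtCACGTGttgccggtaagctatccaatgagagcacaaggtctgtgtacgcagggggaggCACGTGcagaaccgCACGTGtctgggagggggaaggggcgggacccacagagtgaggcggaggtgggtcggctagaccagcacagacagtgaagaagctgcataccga
Cry1: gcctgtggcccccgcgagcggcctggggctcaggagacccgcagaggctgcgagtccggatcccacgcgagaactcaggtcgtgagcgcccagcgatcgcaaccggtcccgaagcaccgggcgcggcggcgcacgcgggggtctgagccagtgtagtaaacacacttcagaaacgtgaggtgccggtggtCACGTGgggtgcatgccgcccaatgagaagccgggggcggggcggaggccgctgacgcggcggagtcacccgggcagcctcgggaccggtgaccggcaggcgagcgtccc
The E-box was in 7.15% of all windows, in 14 of 102 windowed genes called higher (13.7%), in 28 of 237 called lower (11.8%) and in 10.2% of all tested genes with a window.

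Of 28 TGF-beta, BMP and activin genes 4 were lower and 1 was higher. The inhibitory Smad7 read 54.0 and 55.9 at 6 h, against 1 h values of 179 and 194 and 2 h values of 118 and 112 (log2 change -1.20, SE 0.16, adjusted p = 2.7e-04), though its second probe set changed by -0.30. The corepressor Ski read 42.6 and 94.4 at 6 h, against 1 h values of 174 and 168 and 2 h values of 152 and 176 (log2 change -1.19, SE 0.23, adjusted p = 0.0067), and its relative Skil changed by -0.81 (adjusted p = 0.049). Inhba, the activin A subunit, changed by -0.57 (adjusted p = 0.047), and the receptor Tgfbr2 rose by 0.60 (adjusted p = 0.037). Other probe sets of Tgfbr2 changed by -0.05 and 0.14. Skil, Inhba and Tgfbr2 each lost their call under 10 or more of the 19 alternatives. Vegfa, the vascular growth factor, read 208 and 334 at 6 h, against 1 h values of 538 and 504 and 2 h values of 446 and 480.2 (log2 change -0.86, SE 0.19, adjusted p = 0.02) and was the 1 of 21 growth factor and receptor genes called. Without 6 h replicate 1, Smad7 was called and Ski and Vegfa were not; the call of Smad7 was lost when ambiguous probe sets were left out.

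Of 28 mitosis, 33 DNA replication and 18 G1 and growth control genes, 0, 1 and 2 were called, all lower, against 2.33% of all genes. Only 8 of the mitosis genes were brighter than the median of all values on the 6 arrays, so the levels of most were low. The cell cycle inhibitor Cdkn1b, p27, read 72.1 and 107 at 6 h, against 1 h values of 164 and 197 and 2 h values of 157 and 182 (log2 change -0.87, SE 0.17, adjusted p = 0.0059), and the antiproliferative Tob1 read 386 and 959.9 at 6 h, against 1 h values of 1716 and 1949.6 and 2 h values of 1327 and 1747 (log2 change -1.43, SE 0.26, adjusted p = 0.0039); both belong to the G1 and growth control list, and neither passed without 6 h replicate 1. Cyclin D1 (Ccnd1) read 259 and 330.3 at 6 h, against 1 h values of 217 and 414 and 2 h values of 434 and 457 and did not pass (adjusted p = 0.74). Of 33 DNA replication genes the 1 called was Ccne2, at levels near 0 (-0.84, adjusted p = 0.042). Ribosome biogenesis had 3 of 39 members higher and 0 lower, with a median of 0.216, and 12 members above all earlier arrays on both 6 h arrays. Over all genes 0.698% were called higher and 7.18% lay above all earlier arrays in this way. Rrs1, a ribosome assembly factor, read 359 and 247 at 6 h, against 1 h values of 133 and 124 and 2 h values of 113 and 155 (log2 change 1.10, SE 0.19, adjusted p = 0.0027). Heatr1, of the small subunit processome, rose by 1.04 (adjusted p = 0.0083) and Nip7, which acts in pre-rRNA processing, by 0.93 (adjusted p = 0.025), and no call of the 3 held without 6 h replicate 1. Other probe sets of Heatr1 changed by 0.11 and 0.30, and the second of Nip7 by 0.11. The nucleolar proteins Npm1 and Ncl changed by 0.07 and 0.16 (adjusted p = 0.96 and 0.87).

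The 2 arrays of 6 h were unequal in how far they had moved. Replicate 1 read above replicate 2 for 103 of the 127 higher genes (81.1%) and below it for 237 of the 297 lower genes, against 48.8% above over all genes. The median change from 1 and 2 h of the higher genes was 1.17 on replicate 1 and 0.891 on replicate 2, and that of the lower genes -0.916 and -0.662. These genes were chosen by the same arrays, so the values describe them and test nothing.

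**Figure D4:**
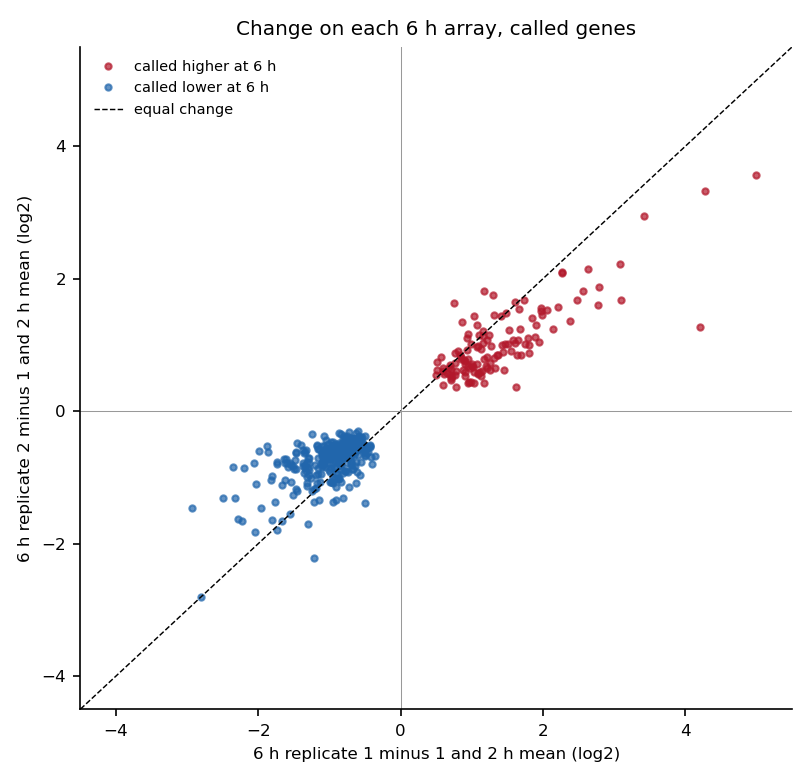
Log2 change of each called gene from the mean of 1 and 2 h, on 6 h replicate 1 (x axis) and on 6 h replicate 2 (y axis); the dashed line marks equal change. Most of the 127 higher genes (red) lie below the line and most of the 297 lower genes (blue) above it, so replicate 1 had moved further.

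The 2 early times were also set against each other. Between 2 h and 1 h, 4 genes (0.022%) were called, 2 higher at 2 h (0.011%) and 2 lower (0.011%). They were Epha7 and Cbwd1, higher at 2 h, and Phlda1 and Lin28b, lower, and were named after their values were seen. Hhex, Gadd45a and Pdk4 were not among these 4, though the fitted change of each was larger against 1 h than against 2 h. Hhex changed by -2.61 against 1 h and -1.31 against 2 h. Gadd45a changed by 2.33 against 1 h and 0.92 against 2 h, and only the first of these passed (adjusted p = 8.4e-05 and 0.16); the difference between them, 2 h minus 1 h, was 1.42 (adjusted p = 0.13). Pdk4 changed by 2.87 and 1.29 against the same times.

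Against time 0, 360 genes (1.98%) were called at 6 h, 184 higher (1.01%) and 176 lower (0.967%). The split rested on the time 0 arrays: it was 134 higher and 45 lower without time 0 replicate 1, and 114 higher and 165 lower without time 0 replicate 2. Without 6 h replicate 1 it was 86 higher and 56 lower. This comparison shares the 6 h arrays with the main one, so only the values are set side by side. Lcn2, Cd14 and Rab30 were raised against both, by 4.28, 2.65 and 2.18 from 1 and 2 h and by 3.65, 3.11 and 3.28 from time 0. Nr1d2 and Cry1 changed by 1.53 and -1.29 from 1 and 2 h and by -0.02 and 0.37 from time 0. G6pc, Dusp1 and Ppp1r3g changed by -1.82, -1.39 and -1.53 from 1 and 2 h but by 2.58, 1.81 and 2.79 from time 0.

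A comparison that shares no array with the main one is 12 h against time 0, in which 1593 genes (8.76%) were called, 761 higher (4.18%) and 832 lower (4.57%). These counts were 603 and 358 without time 0 replicate 1, 391 and 545 without time 0 replicate 2, 587 and 1120 without 12 h replicate 1, and 459 and 298 without 12 h replicate 2. It was added after the data were seen, and both comparisons use the same estimate of each gene's spread. Of the 127 genes higher at 6 h, 92 (72.4%) were also raised at 12 h against time 0 and 3 were lowered. Of the 297 genes lower at 6 h, 97 (32.7%) were lowered at 12 h and 10 raised. With the same genes kept and 1 array of 12 h or time 0 left out at a time, 51.2% to 63.8% of the higher genes were raised at 12 h, and 16.8% to 35% of the lower genes were lowered. The share of the lower genes was 19.5% without time 0 replicate 1 and 16.8% without 12 h replicate 2. Among the raised, Cd14 read 3569 and 2279.7 at 12 h and Il1r1 read 2462 and 1731, above their 6 h arrays. Gadd45a was at 67.1 and 87.8 at 12 h, below its time 0 arrays, and Rab30 at 656 and 606. Gadd45a was thus highest at 6 h, while Lcn2 was at 7966 and 6203.

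**Figure D5:**
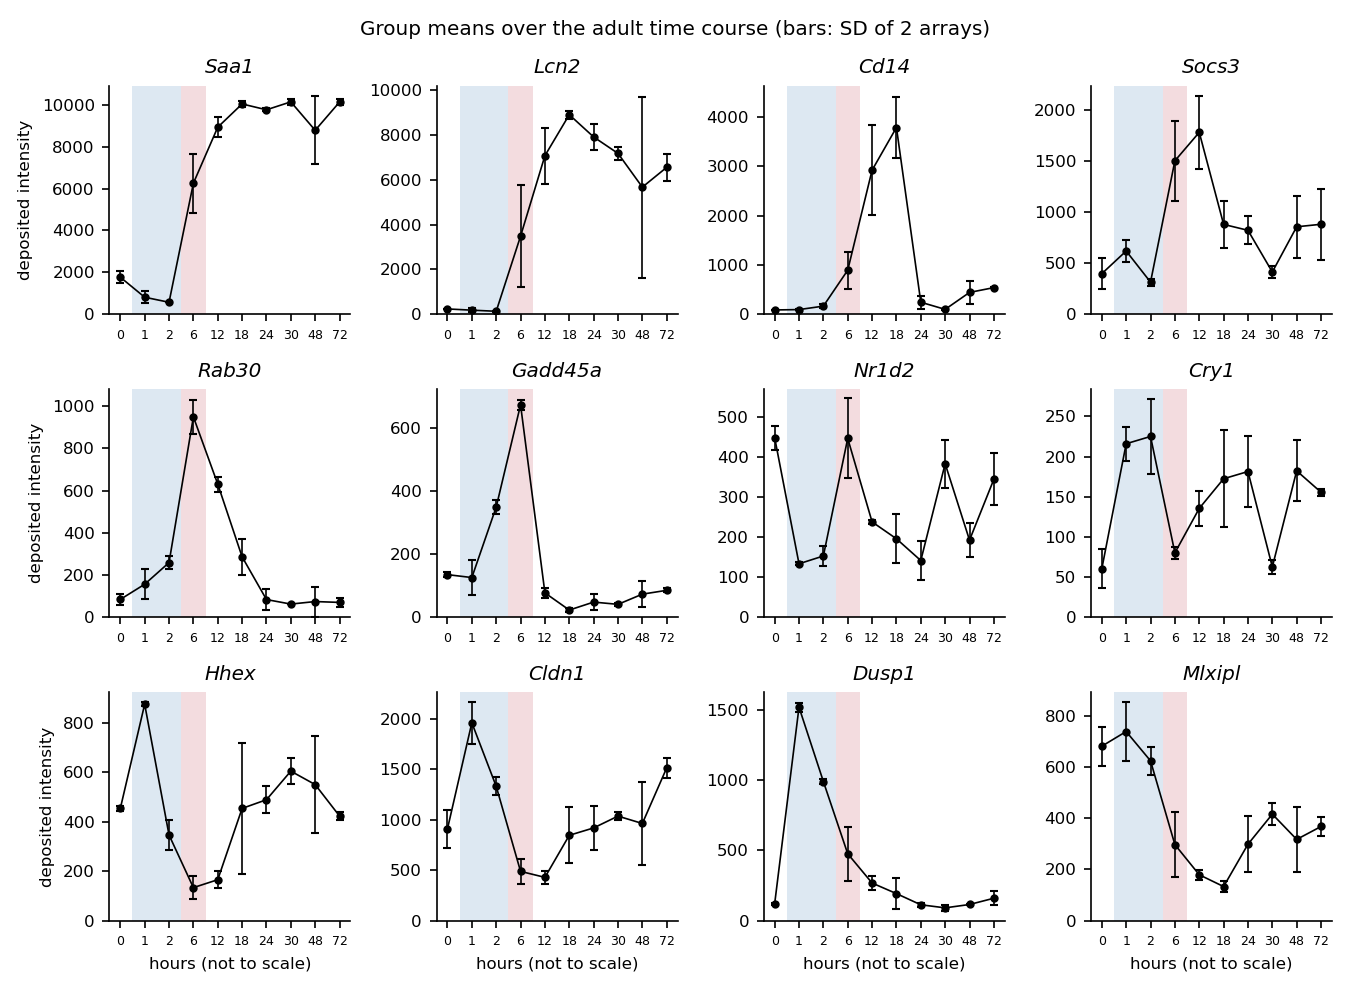
Group means of deposited intensity for 12 genes from time 0 to 72 h (bars are the SD of 2 arrays), with 1 and 2 h shaded blue and 6 h shaded red. Saa1 and Lcn2 stay high from 6 h on, Gadd45a is highest at 6 h, and Dusp1 is highest at 1 h.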

How the data were processed

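RNA of 32 adult and embryonic liver samples was hybridised to Affymetrix whole-genome mouse expression arrays, from 6 microg of total RNA each, per the labels. The authors deposited a linear intensity per probe set; how they were scaled, and with which software, is not given in the sources used here. Between 2.83% and 3.00% of the values of the 6 arrays compared were below 0. The 75th percentile varied by 0.0751 (log2) between them, and the deposited scaling was left as it is.

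Negative values were replaced by 0 before taking log2(intensity + 16). Of 45101 probe sets, 34958 were listed with 1 gene, and for the 9012 genes with several the probe set with the highest mean log2 value stood for the gene, which left 18194 genes. limma 3.58.1 (R 4.3.3) was run over all 32 arrays with a mean for each of 16 groups and a trended eBayes step (16 residual degrees of freedom, 4.76 prior), and 6 h was set against the mean of 1 and 2 h, with Benjamini-Hochberg adjustment over all genes. Each group has 2 arrays, whose number limits the precision. Simulated data had independent noise at the fitted spread of each gene, the same on all arrays. Changes were planted only in genes above the median level at 6 h. In these data the fit recovered 16.4% of genes changed 1.5-fold, 74.6% at 2-fold and 98.5% at 4-fold, and called 5 of 17994 unchanged genes. The simulation takes the shared spread as given, so it does not test the calls made in the real data. Promoter windows are those of RefSeq for GRCm38.p6.

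Genes named are the 15 largest rises and 15 largest falls called, bright and without overlap of the arrays, up to 4 called members of each list by p, and defining members of lists; not all are named, and other members of the lists were added. The comparison, the 39 lists and the motifs were chosen with earlier results of these data known. Alternatives were the constant, scaling, probe set choice, arrays in the fit, a replicate block, array weights and leaving out each array; the Actb ratio as covariate, leaving out both 2 h arrays, and 12 h against time 0 were added after seeing the data. Some genes are not reported here.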

Additional observations from a re-analysis of the deposited data

Results flagged for a closer look

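For 4 genes the early times differed from each other, so that the 6 h change depended on which of them it was set against; of these, only Epha7 was called at 6 h against 1 and 2 h together. Epha7, an ephrin receptor, read 103 and 143 at 2 h, against -245 and -263 at 1 h (log2 change 3.11, 2 h minus 1 h, SE 0.31, adjusted p = 4.0e-05). At 6 h it read -339 and -126 and at time 0 -55.5 and -425. Of these 8 arrays all 6 outside 2 h were below 0, where no level is measured, and its change against 1 and 2 h together does not describe both times. Phlda1, a pleckstrin homology domain protein, read 304 and 219 at 2 h, against 1885 and 1432 at 1 h, and 989.6 and 706 at 6 h (log2 change -2.60, 2 h minus 1 h, SE 0.31, adjusted p = 3.3e-04). Its 6 h arrays lay between the early times. Cbwd1 and Lin28b read under 100 on all arrays of 1, 2 and 6 h, some of them below 0, with differences of 1.33 and -1.69 (adjusted p = 0.032 and 0.049) whose size is not firm.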

How the results depend on the processing

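None of the named called genes changed direction under the alternatives run. The largest rises and falls were chosen without overlap of the arrays, so leaving out an array could not have reversed them. The 424 calls became 125 with the 20 adult arrays alone, 15 with only the 6 arrays compared (3662 genes at an unadjusted p under 0.05), 1427 with array weights, 256 without both 2 h arrays and 2073 with the Actb ratio as covariate; constants, scalings and probe set choices gave 326 to 479. With the 20 adult arrays, only the arrays compared, array weights and the Actb ratio, 6 h against 1 h gave 64, 5, 1047 and 1516 calls, 6 h against 2 h gave 26, 2, 1254 and 1063, and called list members, 68 in the comparison as reported, were 22, 4, 137 and 169. For 6 h against time 0 the adult arrays gave 149, only the arrays compared 121 and the Actb ratio 553. Leaving out 1 array at a time gave 47 to 344 calls against 1 and 2 h, 51 to 285 against 1 h, 20 to 186 against 2 h, 142 to 279 against time 0 and 15 to 58 list members. With 1 array left at a time, that array was assumed to vary like the other groups. The 1593 calls of 12 h against time 0 were 934 with the adult arrays, 886 with array weights and 757 to 1707 on leaving out 1 array. Of the 127 higher and 297 lower genes, 51.2% to 73.2% and 16.8% to 35% moved alike at 12 h on leaving out 1 array. Among the genes that the fit with array weights itself called at 6 h, these were 136 of 339 and 183 of 1088. The cause of these differences was not tested. Replicate numbers pair no samples in the labels, and same-numbered arrays deviated with correlations of 0.023, -0.07 and -0.015. A replicate block gave 367 calls (116 higher, 251 lower), 260 against 1 h, 144 against 2 h and 316 against time 0. Of 122 genes checked, 89 were called and 3 of these (Saa1, Nfkbiz and Arid5a) kept the call under all 19 alternatives. Signal limits what can be said of genes near or below 0, such as Rccd1 and Sult1e1.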
